A study of Mus musculus with 138 samples.

Results

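The genes described here encode 10 subunits of the BAF and PBAF chromatin remodellers, picked by name from the 25900 genes of both deposited count tables: Smarca4, Smarca2, Smarcb1, Smarcc1, Smarcc2, Smarcd1, Smarce1, Arid1a, Arid1b and Pbrm1. All 10 were listed in both tables. Their RNA was measured in single mouse embryos at the 2-cell stage, with 1 polyA library per embryo, and the 116 of 135 embryo libraries with at least 100000 counts were used.

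The first experiment compared 28 libraries of embryos labelled Smarca5 +/- (mat KO), which the design text describes as offspring of Smarca5 mat KO mothers and wild-type fathers, with 22 libraries labelled Smarca5 +/+. These groups are called maternal deletion and wild type. The titles of both name matKO females, so the mothers are not told apart there, and maternal loss and the embryo's own genotype cannot be told apart. The second experiment used wild-type zygotes and TrimAway, in which an injected antibody directs its target protein to degradation through the ubiquitin ligase TRIM21. It gave 31 libraries injected with an antibody to SMARCA5, 20 injected with IgG and 15 of uninjected embryos. The IgG libraries are not alike in Trim21 RNA: it had 0 counts in all 10 of replicate 1 and over 3 counts in 8 of 10 of replicate 3 (median 320 CPM), while 30 of 31 anti-SMARCA5 libraries had over 3 counts (replicate medians from 1023 to 1755 CPM) and no uninjected library did. The labels do not say which IgG embryos received Trim21, and in replicate 1 a difference between anti-SMARCA5 and IgG embryos cannot be told apart from one in Trim21. Strain, age of the mothers and the driver of the deletion are not given in the sources used here. A replicate number stands for a pool of embryos: 8 and 14 wild-type libraries and 13 and 15 maternal deletion libraries came from replicates 1 and 2, 10 and 5 uninjected and 10 and 10 IgG libraries from replicates 1 and 3, and 17, 7 and 7 anti-SMARCA5 libraries from replicates 1, 2 and 3. The 6 IgG libraries of replicate 2 were too shallow to keep. Embryos of a pool share their source and the design text calls the replicates technical, so the p-values measure the spread between embryos of a few pools.

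SWI/SNF remodellers use the energy of ATP to slide or evict nucleosomes. Each complex holds a single ATPase, SMARCA4 (BRG1) or its paralogue SMARCA2 (BRM). In the BAF and PBAF forms the core contains SMARCC1, SMARCC2 or both (BAF155 and BAF170), SMARCB1, a SMARCD subunit and SMARCE1. ARID1A or ARID1B marks the BAF form, and PBRM1 with ARID2 and BRD7 marks the PBAF form. SMARCA4 supplied by the egg is known to be needed for genome activation in mouse embryos. SMARCA5, the protein targeted in this study, is the ATPase of a different remodeller family, ISWI.

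Depth differed between groups, with a median of 545264.5 counts in wild type, 1618485.5 in maternal deletion and 1460667 to 1708008 in the 3 TrimAway groups. Smarca5 RNA was between 151 and 810 CPM (the count of a gene scaled to a common library size) in wild type and between 3.04 and 341 CPM in maternal deletion. One maternal deletion library (replicate 2, well A04), at 266 CPM, carried the second highest level of Smarca5 among the 28. It also had the least RNA of Gdf9, an oocyte growth factor gene, at 18.7 CPM. Gdf9 had a median of 40.4 CPM in wild type (0 to 653) and 4669.5 CPM in maternal deletion. Well A04 thus lay within the wild-type range of both genes. Whether its label is right was not tested, and the library was kept under it. The wild-type libraries of wells G05 and H05 in replicate 2 were the lowest of their group in Smarca5 and the highest in Gdf9. Since TrimAway removes protein, the RNA level of Smarca5 is no check of that treatment. Of 17 listed markers of the 2-cell stage found in the tables, 17 had a median above 0 in wild type and in each TrimAway group, and 12 did so in maternal deletion. A list of 15 oocyte and egg genes summed to 2792 to 13040 CPM in wild type and 4795 to 33332 CPM in maternal deletion. Sperm and male germ line markers summed to at most 36.1 CPM in any library. At least 8 of 13 cumulus and granulosa markers, among them Amh, Foxl2 and Fshr, had a median of 0 in each group. Up to 5 had a median above 0, among them Amhr2 in every group but maternal deletion. The 13 summed to group medians of 38.7 to 66.7 CPM and to at most 246 CPM, in an anti-SMARCA5 library. In the 3 wells without an embryo, Smarca2 had at most 3 counts, Arid1a at most 1 and the other 8 genes 0.

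In maternal deletion embryos the ATPase RNAs moved in opposite directions: Smarca4 fell and Smarca2 rose. The scaffold gene Smarcc1 and Pbrm1 fell, and Arid1b rose. Of the 10 genes, 8 passed the filter on low counts and 5 of those were called, with a Benjamini-Hochberg adjusted p under 0.05 in edgeR's quasi-likelihood test. Across all 8518 genes tested, 56.6% were called, 30.3% higher and 26.4% lower in maternal deletion, so the number of called subunits, 2 higher and 3 lower, is close to the background. The median log2 change was -0.60 over the 8 tested subunits and 0.18 over all genes tested. Each library is a whole embryo, so fewer cells with an RNA and less of it per cell cannot be told apart, and CPM give a share of the library's RNA and not an amount.

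Smarca4 (chr9:21616169-21704230, plus strand, GRCm38) ranged from 26.0 to 365 CPM in wild type, with a median of 105. In maternal deletion it ranged from 1.55 to 160 CPM, with a median of 27.7. The groups overlapped, but 14 of 28 maternal deletion libraries were lower than the lowest wild-type library. On the log2 scale Smarca4 changed by -2.18 (SE 0.37), a 4.54-fold lower level with an edgeR adjusted p of 3.17e-06. It was -1.57 (adjusted p 0.00315) among embryos of replicate 1 and -2.14 (adjusted p 0.000667) among those of replicate 2.

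Smarca2 (chr19:26605115-26778321, plus strand) ranged from 7.16 to 261 CPM in wild type, with a median of 44.6, and from 62.1 to 702 CPM in maternal deletion, with a median of 284. Every one of the 28 maternal deletion libraries was above the wild-type median and 16 were above the highest wild-type library. Its log2 change of 1.83 (SE 0.33), or 3.56-fold higher, had an edgeR adjusted p of 8.30e-06. Its size was not the same in the 2 replicates. It was 0.81 (adjusted p 0.0441) in replicate 1 and 3.05 (adjusted p 1.26e-06) in replicate 2, and the difference of 2.12 (SE 0.52) between them had an adjusted p of 0.0402 in edgeR's interaction test, where 1 of 8 subunits was called against 0.763% of 8518 genes (0.634% with a higher and 0.129% with a lower change in replicate 2). The maternal deletion medians of the replicates were close, at 260 and 292 CPM, whereas the wild-type medians were 161 CPM in replicate 1 and 26.5 CPM in replicate 2. Wild-type Smarca4 went the other way, with medians of 61.5 and 207 CPM. The column headers place these replicates on different sequencing lanes, so pool and lane cannot be told apart.

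The sequences just upstream of these ATPase genes are shown because their RNAs moved in opposite directions. They are the 250 bases before the RefSeq start (GRCm38.p6), at chr9:21615919-21616168 for Smarca4 and chr19:26604910-26605159 for Smarca2, plus strand, with GC boxes (GGGCGG, or CCGCCC on the other strand) and an NRF1 motif (GCGC, any base, then TGCGC) in capitals.
Smarca4: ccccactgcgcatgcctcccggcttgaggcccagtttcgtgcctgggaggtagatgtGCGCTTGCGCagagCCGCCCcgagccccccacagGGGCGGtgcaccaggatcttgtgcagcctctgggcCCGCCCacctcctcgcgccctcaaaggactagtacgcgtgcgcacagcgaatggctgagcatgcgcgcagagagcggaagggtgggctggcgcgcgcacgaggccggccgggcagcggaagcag
Smarca2: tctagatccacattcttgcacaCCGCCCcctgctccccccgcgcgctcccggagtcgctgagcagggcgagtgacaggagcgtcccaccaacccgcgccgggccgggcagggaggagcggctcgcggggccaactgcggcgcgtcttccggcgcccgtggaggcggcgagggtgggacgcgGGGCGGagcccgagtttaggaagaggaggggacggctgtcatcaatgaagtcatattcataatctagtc
Smarca4 held 3 GC boxes and 1 NRF1 motif, and Smarca2 held 2 GC boxes and no NRF1 motif in this window. Across 27025 genes in RefSeq, 32.9% of such windows held a GC box and 3.86% the NRF1 motif. Neither gene had a CCAAT box (CCAAT, 34.5% of windows), a TATA box (TATAAA, 13%) or the motif TAATCC (6.38%), searched on both strands. No matched motif overlapped another. The windows were rich in CpG, with 25 and 28 against a median of 6 per gene.

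The core scaffold gene Smarcc1 (chr9:110132037-110240178, plus strand) ranged from 28.3 to 285 CPM in wild type, with a median of 137, and from 0 to 164 CPM in maternal deletion, with a median of 16.8. In maternal deletion, 27 of 28 libraries were below the wild-type median and 17 below the lowest wild-type library. Its log2 change of -2.36 (SE 0.44), or 5.12-fold lower, had an edgeR adjusted p of 1.65e-05, and it was -3.16 in replicate 1 and -1.97 in replicate 2. The highest of the 28 values, 164 CPM, belonged to the library in well A04. Without it and wells G05 and H05, the highest was 93.4 CPM and the log2 changes were -2.77 for Smarcc1 (adjusted p 4.45e-07), -2.34 for Smarca4 (8.81e-07) and 1.88 for Smarca2 (6.65e-06).

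Of the other core genes, none was called by edgeR with the settings above, but Smarcb1 was called under 5 and Smarce1 under 3 of 10 alternatives. Smarcb1, whose product contacts the nucleosome, had a median of 27.1 CPM in wild type and 16.0 in maternal deletion, with values from 0 to 154 and from 0 to 76.4 CPM, and a log2 change of -1.07 (SE 0.53, edgeR adjusted p 0.0759). Smarce1 had nearly equal medians, 39.5 and 40.5 CPM, and a log2 change of -0.48 (SE 0.31, adjusted p 0.178). In replicate 1 alone these changes were 0.10 and 0.76 and in replicate 2 they were -1.41 and -0.80, differences between replicates that were not called (adjusted p 0.463 and 0.141). Smarcc2, the paralogue of Smarcc1, and Smarcd1 did not pass the filter on low counts. DESeq2, run without this filter, called Smarcb1 (-1.33, adjusted p 0.0220), Smarce1 (-0.70, adjusted p 0.0368) and Smarcc2 (-1.32, adjusted p 0.0400). Smarcc2 had medians of 9.93 and 2.76 CPM, and 9 of 22 wild-type and 16 of 28 maternal deletion libraries had 3 or fewer counts. Smarcd1 had 0 counts in 22 of 28 maternal deletion libraries and in 4 of 22 wild-type ones. One maternal deletion library nonetheless held 65.9 CPM of Smarcd1, above the wild-type maximum of 25.1 CPM. Smarcd1 shares 287 exon bases with Gm17349 on the opposite strand, and the handling of strand in the counts is not given in the sources used here, so their reads cannot be told apart.

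Among the genes that mark the forms of the complex, Arid1b (chr17:4994332-5347656, plus strand), which encodes the less common ARID1 subunit of BAF, ranged from 0 to 82.5 CPM in wild type, with a median of 21.6, and from 1.70 to 173 CPM in maternal deletion, with a median of 69.5. In maternal deletion, 27 of 28 libraries were above the wild-type median and the lowest was well A04. Arid1b rose by 1.27 on the log2 scale (SE 0.41, edgeR adjusted p 0.00709). Within replicate 2 it passed, at 2.08 (adjusted p 0.00864), and within replicate 1 it did not, at 0.51 (adjusted p 0.294), though the difference between replicates was 1.42 (adjusted p 0.344). Arid1a, its more abundant paralogue, had medians of 319 and 455 CPM and a log2 change of 0.45 (SE 0.20, adjusted p 0.0550), and it was called, at 0.48 (adjusted p 0.0431), without the 3 libraries that stand apart. Pbrm1, the PBAF bromodomain subunit, ranged from 19.2 to 215 CPM in wild type and from 4.64 to 187 CPM in maternal deletion, with medians of 91.5 and 59.0. Its log2 change of -0.71 (SE 0.28, adjusted p 0.0289) was not called in either replicate alone, at -0.90 (adjusted p 0.107) and -0.46 (adjusted p 0.284), nor among libraries of at least 500000 counts (-0.65, adjusted p 0.138). DESeq2 called 8 of the 10 genes, against 48.3% of genes.

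The oocyte and egg list moved with these results: 11 of its 13 tested genes rose in maternal deletion and 1, Dppa3, fell, against 30.3% and 26.4% of all genes tested. Of the 14 tested markers of the 2-cell stage, 8 fell and 1 rose. The part of these shifts in the change of the remodeller genes was not tested.

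**Figure D1:**
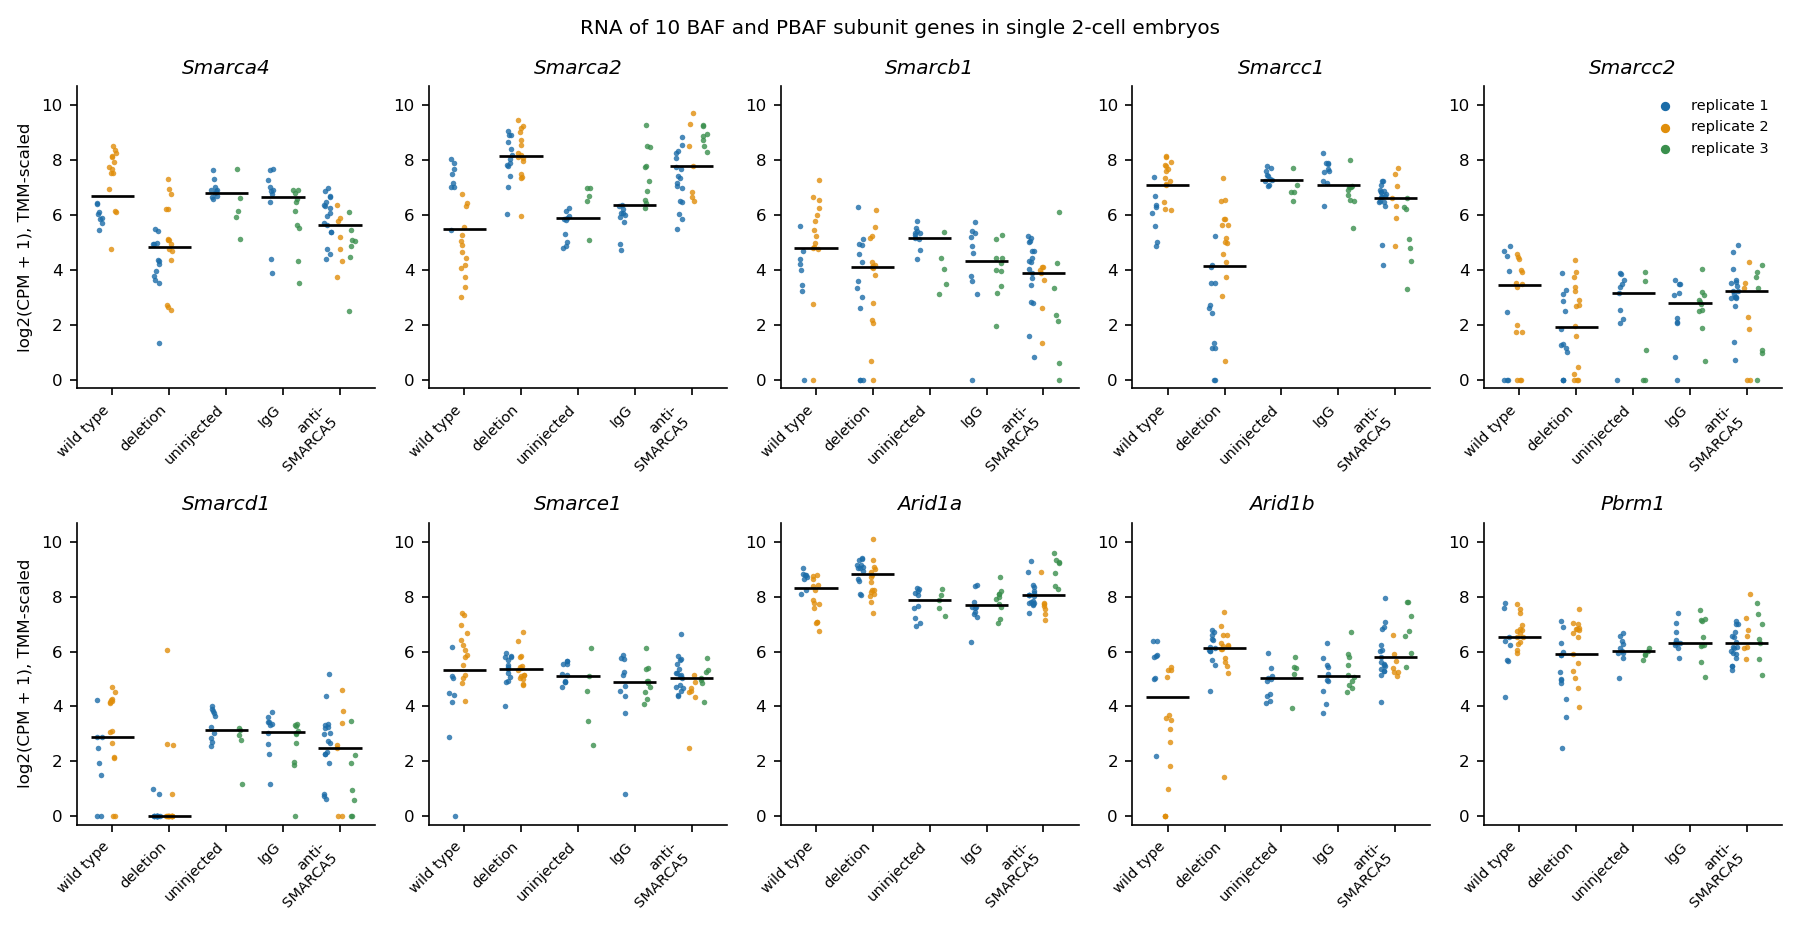
TMM-scaled log2(CPM + 1) of the 10 subunit genes in every kept library (points, coloured by replicate) by group, with the group median as a black line. Smarca4 and Smarcc1 sit lower and Smarca2 higher in maternal deletion than in wild type, with overlap. Wild-type Smarca2 differs in median between replicates (161 and 26.5 CPM), also with overlap.

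After TrimAway, embryos given the antibody to SMARCA5 had less Smarcc1 and more Arid1b RNA than IgG embryos. Of 10 genes tested, 2 were called by edgeR (1 higher, 1 lower), against 3.03% of the 10447 genes tested (1.73% higher and 1.3% lower). The median log2 change was -0.05 over the 10 genes and 0.04 over all genes tested. DESeq2 called 4, against 8.18% of genes, and blocking on the replicate number gave 5 calls, against 25.8%. Compared with uninjected embryos, 5 of 10 were called, against 27.9% of 10750 genes (17.5% higher and 10.4% lower): Smarca2 and Arid1b rose, and Smarca4, Smarcc1 and Smarcb1 fell. Injection, Trim21 and the antibody all differ between those groups and cannot be told apart in that comparison. Scaling by total counts instead of TMM lowered the share of called genes that were higher from 57.1% to 26.6% against IgG and from 62.9% to 17.9% against uninjected embryos. It ended both calls against IgG (Smarcc1 -0.96, adjusted p 0.0914, and Arid1b 0.71, adjusted p 0.123) and that of Arid1b against uninjected embryos (0.68, adjusted p 0.0616). These comparisons share the anti-SMARCA5 libraries and are not independent. When replicate 1 was left out, no subunit was called in either comparison, which then set anti-SMARCA5 libraries of replicates 2 and 3 against controls of replicate 3. By edgeR, 0 of 9402 genes were then called against IgG and 1 of 10544 against uninjected embryos, so the calls ended for nearly all genes. An unadjusted p under 0.05 was left for 1210 and 2261 genes. None of 17 markers of the 2-cell stage and none of 12 oocyte genes tested was called against IgG. Against uninjected embryos 4 of 17 and 3 of 12 rose and 1 oocyte gene fell, and their part in the result was not tested.

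Smarca4 ranged from 4.64 to 126 CPM in anti-SMARCA5 embryos, with a median of 48.2, from 10.5 to 202 CPM in IgG embryos, with a median of 101, and from 33.5 to 204 CPM in uninjected embryos, with a median of 112. In the anti-SMARCA5 group, 28 of 31 libraries were below the IgG median and 29 below the uninjected median. Against uninjected embryos Smarca4 fell, with a log2 change of -1.18 (SE 0.27, edgeR adjusted p 0.00245). Against IgG it was -0.87 (SE 0.29, adjusted p 0.0642), which did not pass, and -0.82 (0.164) and -1.32 (0.0745) within replicates 1 and 3. It passed with DESeq2 (-0.91, adjusted p 0.0399) and with the replicate block (-1.02, adjusted p 0.0127).

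Smarca2 ranged from 43.8 to 845 CPM in anti-SMARCA5 embryos, with a median of 219, from 25.4 to 625 CPM in IgG embryos, with a median of 80.5, and from 26.9 to 125 CPM in uninjected embryos, with a median of 58.5. Of 31 anti-SMARCA5 libraries, 23 were above the highest uninjected library, whereas 2 were above the highest IgG library. Smarca2 rose by 2.06 on the log2 scale (SE 0.33, edgeR adjusted p 0.000332) against uninjected embryos, and the change was 0.94 (SE 0.32, adjusted p 0.0697) against IgG. Between IgG and uninjected embryos it was 1.11 (edgeR adjusted p 0.161). The IgG embryos had a median of 64.3 CPM in replicate 1 and 182 CPM in replicate 3. Within these replicates the change against IgG was 1.57 (adjusted p 0.0377) and 0.97 (adjusted p 0.0636). The change against IgG passed with DESeq2 (0.92, adjusted p 0.0277) and with the replicate block (1.298, adjusted p 0.00212).

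Smarcc1 ranged from 8.77 to 210 CPM in anti-SMARCA5 embryos, with a median of 97.6, from 44.7 to 305 CPM in IgG embryos, with a median of 137, and from 89.3 to 220 CPM in uninjected embryos, with a median of 154. The groups overlapped, with 7 of 31 anti-SMARCA5 libraries under the lowest IgG library and 14 under the lowest uninjected one. Smarcc1 had log2 changes of -0.87 (SE 0.25, edgeR adjusted p 0.0413) against IgG and -0.87 (SE 0.25, adjusted p 0.0114) against uninjected embryos. It was called against IgG in replicate 1 (-1.05, adjusted p 0.0430) and in replicate 3 (-1.47, adjusted p 0.0310).

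Arid1b ranged from 17.0 to 246 CPM in anti-SMARCA5 embryos, from 12.5 to 104 CPM in IgG embryos and from 14.2 to 61.1 CPM in uninjected embryos, with medians of 54.7, 33.7 and 31.4. Of the anti-SMARCA5 libraries, 29 of 31 were above the IgG median. Arid1b rose by a log2 change of 0.92 (SE 0.25, edgeR adjusted p 0.0368) against IgG and 1.17 (SE 0.28, adjusted p 0.00296) against uninjected embryos. Against IgG it passed in replicate 3 (1.47, adjusted p 0.0178) and not in replicate 1 (0.89, adjusted p 0.138). Arid1a had log2 changes of 0.46 (adjusted p 0.105) and 0.42 (adjusted p 0.0899) in these comparisons, and it passed within replicate 3, at 1.003 (adjusted p 0.0229) and 0.96 (adjusted p 0.0365).

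Smarcb1 had medians of 13.9, 19.3 and 35.1 CPM in anti-SMARCA5, IgG and uninjected embryos. Its log2 change was -1.05 (SE 0.38, edgeR adjusted p 0.0343) against uninjected embryos and -0.52 (adjusted p 0.377) against IgG. The former was not called within replicate 3 (-0.65, adjusted p 0.639), without replicate 2 (-0.93, adjusted p 0.0802) or with the replicate number as a block, which called 31.9% of genes. The other 4 genes were not called against either control, with log2 changes from -0.15 to 0.43 against IgG and from -0.47 to 0.42 against uninjected embryos. They are Smarcc2, Smarcd1, Smarce1 and Pbrm1.

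IgG embryos, with and without Trim21 RNA, were compared with uninjected ones as the controls of the TrimAway experiment. None of the 10 genes was called by edgeR, as was true of 0% of the 9915 genes tested. At an unadjusted p under 0.05 there were 1440 genes, 2 of them subunits. These were Smarca2, at a log2 change of 1.11 (SE 0.34, adjusted p 0.161), and Pbrm1, at 0.52 (SE 0.20, adjusted p 0.221). DESeq2 called these 2 and 10.8% of the 2493 genes to which it gave an adjusted p, and edgeR with no filter on low counts called 1 and 4.2%. Of 20 IgG libraries, 17 were above the uninjected median for Smarca2 and 6 above the uninjected maximum. The Smarca2 change was 0.31 without replicate 3 and 1.18 without replicate 1, the replicate in which IgG embryos had no Trim21 counts; the part of Trim21 was not tested.

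**Figure D2:**
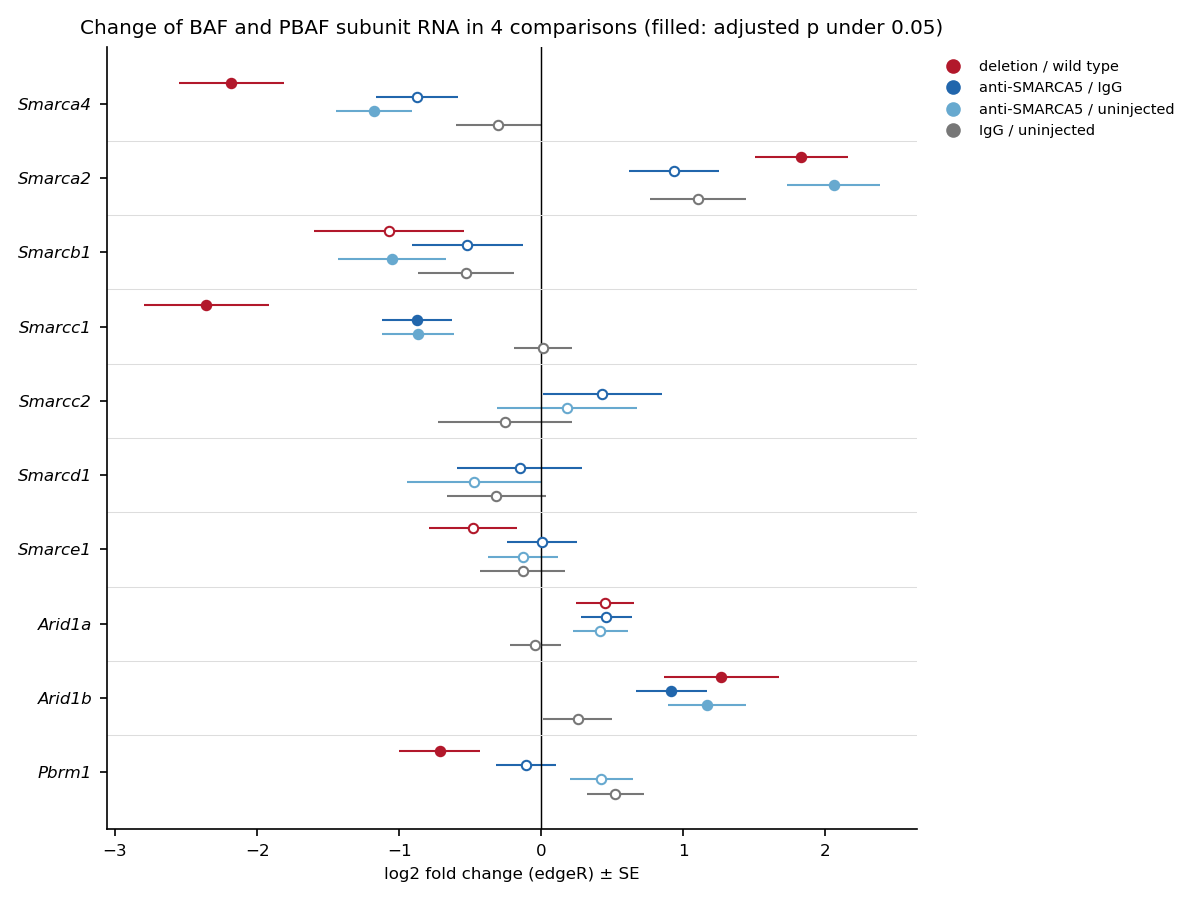
edgeR log2 fold changes with standard errors of the 10 genes in 4 comparisons, filled where the adjusted p is under 0.05. Smarcc2 and Smarcd1 were not tested in maternal deletion. Smarcc1 and Arid1b are filled in each of the 3 comparisons of maternal deletion or anti-SMARCA5 embryos with a control, on opposite sides of 0.

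The deletion and TrimAway effects share no library, so the difference between them was tested in 1 fit of 4 groups, where 19.2% of 12035 genes differed (10.5% with a higher and 8.73% with a lower change in the deletion). Of the 10 subunits, 2 differed: Smarca4 fell further in the deletion, by a log2 difference of -1.36 (SE 0.47, edgeR adjusted p 0.0297), and Smarcc1 by -1.51 (SE 0.50, adjusted p 0.0243). With the replicate block the difference for Smarca4 was not called (-1.01, adjusted p 0.125) and that for Smarcc1 was (-1.31, adjusted p 0.0428). For Smarca2 the difference was 0.83 (95% interval -0.04 to 1.70, adjusted p 0.177), and for Arid1b 0.29 (-0.59 to 1.18, adjusted p 0.685), intervals that span 0. In the same test 9 of 14 oocyte and egg genes differed, 8 of them higher in the deletion, and their part in the result was not tested.

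A share within a pair of paralogues does not depend on how libraries are scaled, and is given without a test. Smarca4 made up a median of 63.1% of the counts of Smarca4 and Smarca2 together in wild type (20.1 to 97.1%), 64.2% in uninjected (21.1 to 87.7%) and 55.7% in IgG embryos (1.65 to 85.7%). The median was 8.51% in maternal deletion (0.942 to 63.7%) and 15.8% in anti-SMARCA5 embryos (0.756 to 74.1%). Smarca4 held more than 50% in 14 of 22 wild-type, 11 of 15 uninjected and 11 of 20 IgG libraries, and in 1 of 28 maternal deletion and 4 of 31 anti-SMARCA5 libraries. The single maternal deletion library above 50%, at 63.7%, was well A04.

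The share in control embryos differed between pools. The wild-type median was 26.9% in replicate 1, where 1 of 8 libraries exceeded 50%, and 89.9% in replicate 2, where 13 of 14 did. In replicates 1 and 3 it was 65.7% and 40.2% in uninjected and 67.2% and 28.4% in IgG embryos. Within each replicate, the median was lower in maternal deletion than in wild type, at 7.45% and 10.1%. It was also lower in anti-SMARCA5 embryos than in either control, at 24.6% and 6.30% in replicates 1 and 3. In TrimAway replicate 1, the antibody and Trim21 cannot be told apart. Arid1a had a median share of 81.9 to 93.6% of its pair with Arid1b in each group, and Smarcc1 one of 86.4 to 96.3% with Smarcc2. In replicate 1 the Smarcc1 share had a median of 93.3% in wild type and 68.8% in maternal deletion, and in replicate 2 it had 96.1% and 91.0%. In maternal deletion, Smarcc1 held more than 50% of that last pair in 21 of the 27 libraries with counts, against 22 of 22 in wild type. Many of these maternal deletion shares rest on few counts. Of 28 libraries, 8 had 3 or fewer counts of Smarcc1 and 16 had 3 or fewer of Smarcc2. The fewest counts of the pair were 0 in replicate 1 and 15 in replicate 2.

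**Figure D3:**
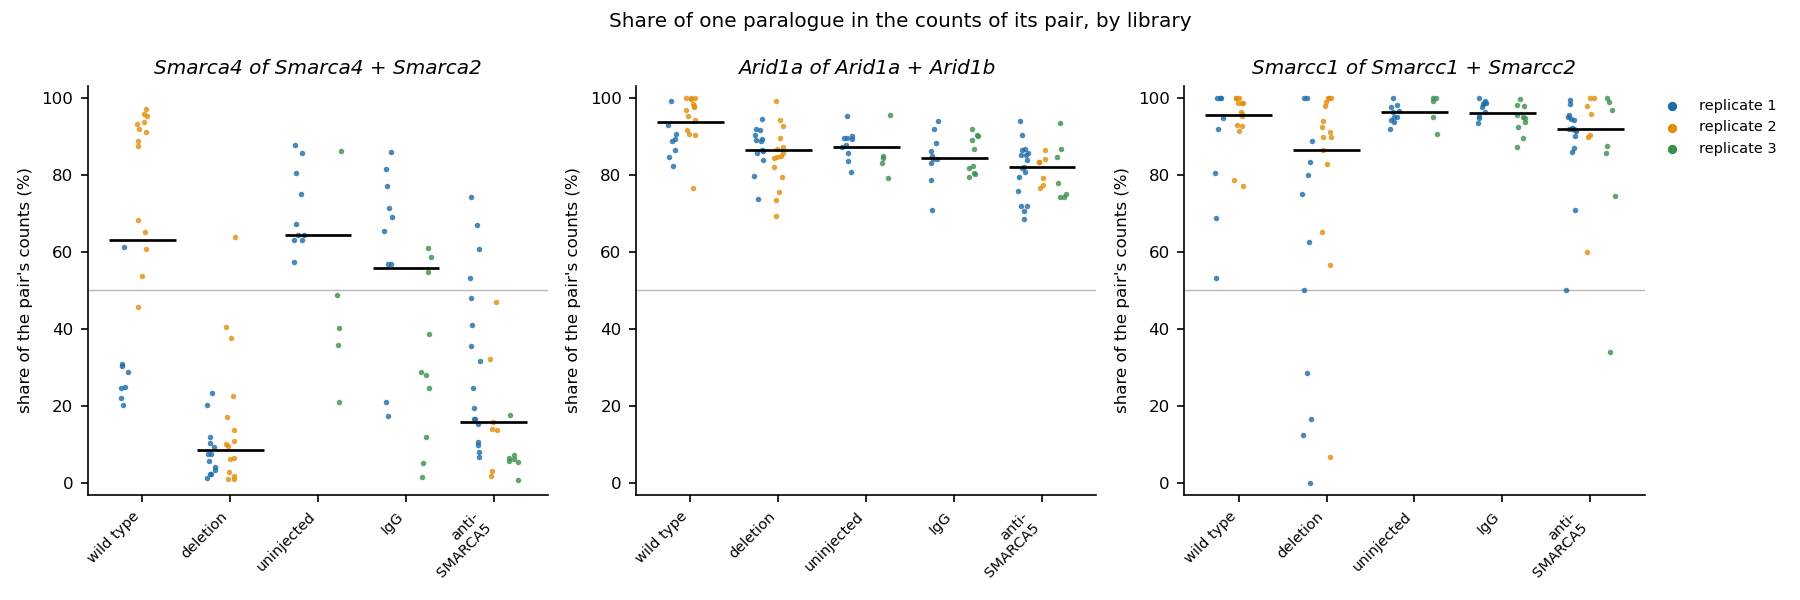
Percent of a pair's counts that belong to its first paralogue, by library (points, coloured by replicate), with group medians as black lines and a grey line at 50%. The median Smarca4 share is 63.1% in wild type, 8.51% in maternal deletion and 15.8% in anti-SMARCA5 embryos. The wild-type medians of replicates 1 and 2 differ (26.9% and 89.9%), though their libraries overlap.

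Per kilobase of transcript, the order of the genes differed between groups and between replicates of a group. In wild type, Arid1a had the highest median level, 39.1 CPM per kb, followed by Smarcc1 at 24.0, Smarca4 at 16.5 and Smarcb1 at 16.4, then Pbrm1 at 13.9, Smarce1 at 13.5 and Smarca2 at 7.53. Smarcc2, Smarcd1 and Arid1b were lowest, at 2.19, 1.95 and 1.91. The interquartile range of each gene overlapped that of the next, so neighbours in this order do not differ beyond their spread. In wild-type replicate 1 Smarca2 was second, at 27.2 CPM per kb, after Arid1a at 52.5, and Smarca4 was at 9.68, whereas in replicate 2 Smarca4 was first, at 32.6, and Smarca2 was at 4.48. In maternal deletion, Smarca2 was second at 48.0 CPM per kb beside Arid1a at 55.6, while Smarca4, at 4.36, and Smarcc1, at 2.94, were among the 4 lowest. There a gap without overlap of the quartiles separated Smarca2 from the next gene, Smarce1 at 13.9. In anti-SMARCA5 embryos Smarca2, at 37.1, and Arid1a, at 32.5, overlapped in their quartiles, with Arid1a the higher in replicate 1 and Smarca2 in replicates 2 and 3, and Smarca4 was at 7.58. In uninjected and IgG embryos Arid1a and Smarcc1 came first, at 28.7 and 26.9 and at 25.04 and 24.0 CPM per kb, but in IgG replicate 3 Smarca2 was first, at 30.8.

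Over the 11 group-by-replicate sets of libraries, the mean log2(CPM + 1) of Smarca4 ran opposite to that of Smarca2, with a Pearson correlation of -0.93. It ran with Smarcb1 at 0.90, Smarcd1 at 0.89 and Smarcc1 at 0.85. The correlation of Smarca4 was lower with Smarcc2 (0.49), Pbrm1 (0.42) and Smarce1 (0.099), and negative with Arid1b (-0.84) and Arid1a (-0.72). The share of all genes at such values is not given here. The genes most like Smarca4 among 8069 compared were RP23-72M20.2 (0.990), Ccdc124 (0.989) and Eif3b (0.988), the last a translation initiation factor subunit. These correlations describe 11 sets that share scaling, and they carry no p-value. By the column headers, the TrimAway sets share a sequencing lane, whereas the replicates of the deletion experiment lie on different lanes.

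A list of 21 further SWI/SNF subunit genes showed movement in both directions in maternal deletion. Of 16 tested, 6 rose and 3 fell, again against a background of 56.6%. The genes that rose included Arid2 (log2 change 1.23, edgeR adjusted p 0.00201) and Brd7 (0.56, adjusted p 0.0417) and Phf10 (1.13, adjusted p 0.0353), which like Pbrm1 belong to PBAF. Bcl7c (1.19), Ss18 (1.12) and Ss18l1 (1.40) rose too, with adjusted p of 0.000690, 0.0290 and 0.0249. The genes that fell were Dpf2, a BAF subunit (-1.94, adjusted p 0.00789), and Brd9 (-1.89, adjusted p 0.00270) and Bicral (-1.16, adjusted p 0.00212), which belong to the non-canonical form of the complex.

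After TrimAway, none of the 16 further genes tested against IgG was called by edgeR, with 2 at an unadjusted p under 0.05 (Bcl7b and Ss18l1). Against uninjected embryos, Arid2 (0.95, adjusted p 0.00188), Brd7 (0.75, adjusted p 0.0349) and Ss18l1 (1.36, adjusted p 0.0136) rose and Dpf2 fell (-0.80, adjusted p 0.0396), 4 of 17 tested against 27.9% of all genes. In the test of the difference between deletion and TrimAway, 2 of 19 were called, Brd9 and Bicral, both lower in the deletion, against 19.2% of all genes. Actl6b and Bcl11b, whose products belong to complexes of neurons and lymphocytes, had medians of at most 0.546 CPM in every group. Such low levels did not hold for the whole list. Bcl11a had medians of 0 CPM in wild type, uninjected and IgG embryos, 3.18 in maternal deletion and 6.94 in anti-SMARCA5 embryos (maximum 143). Dpf3 had medians from 8.84 CPM in IgG embryos to 36.9 CPM in maternal deletion.

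**Figure D4:**
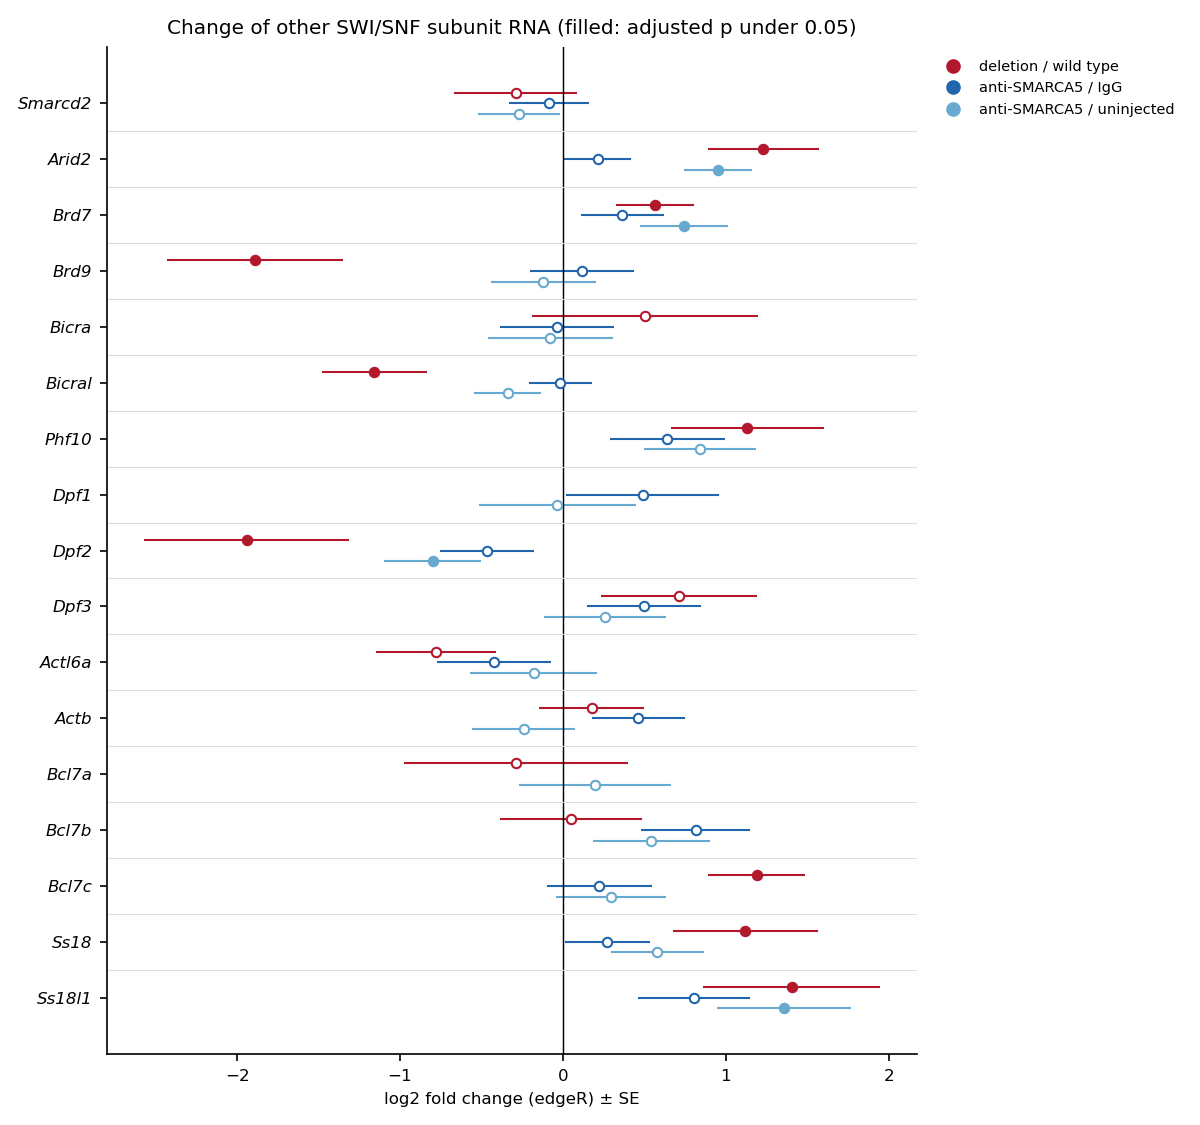
edgeR log2 fold changes with standard errors of the 17 further SWI/SNF subunit genes tested in at least 1 of 3 comparisons, filled where the adjusted p is under 0.05. Brd9 (-1.89) and Dpf2 (-1.94) lie farthest to the left in maternal deletion, and Ss18l1 is to the right of 0 in each comparison.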

How the data were processed

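Each experiment has 1 table of gene counts, deposited by the authors. Per the file headers, reads were aligned with HISAT2 to GRCm38 with ERCC spike-ins. The submitters' processing notes name Trim Galore 0.6.5, cutadapt 2.3 and HISAT2 2.1.0. The handling of strand, multiple matches and duplicates is not given in the sources used here. Counts are unnormalized. Low odd counts outnumber even ones (134662 table entries hold 1, 30228 hold 2), so counting error is uncertain.

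Lines with the same identifier were summed. Libraries of at least 100000 counts entered (range 109007 to 12004992). Tests used the robust quasi-likelihood method of edgeR 4.0.16 (R 4.3.3) after filterByExpr and TMM normalization, and p-values were adjusted by Benjamini-Hochberg over all genes tested. The code was tested on simulated data. Levels are CPM scaled by TMM over all kept libraries of both tables, so levels set across experiments come from different lanes by the column headers. Levels per kb use the longest principal transcript (GENCODE M21). The subunits, the gene lists and the alternatives were chosen with earlier results of these data known. Duxf3, a listed marker, was not analysed here. The genes named are the 10 subunits, called or not, and the called members of the list of 21. The 3 genes most like Smarca4 over the sets of libraries are also named. Bcl7b, Actl6b, Bcl11b, Bcl11a and Dpf3 were chosen after their values were seen. Alternatives were DESeq2 1.42.0, other scalings, no filter, other depth minimums, a replicate block, and leaving out replicates or the 3 libraries that stand apart.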

Additional observations from a re-analysis of the deposited data

Results flagged for a closer look

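The effect of the maternal deletion on Smarca2 differed between the pools of embryos. The log2 change was larger in replicate 2 than in replicate 1 by 2.12 (SE 0.52, edgeR interaction test, adjusted p 0.0402), with wild-type medians of 26.5 and 161 CPM and maternal deletion medians of 292 and 260 CPM in these replicates.

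The effect of the deletion differed from that of TrimAway for Smarca4, by -1.36 (SE 0.47, adjusted p 0.0297), and for Smarcc1, by -1.51 (SE 0.50, adjusted p 0.0243), in an edgeR contrast of the 4 groups. With the replicate block Smarca4 was at -1.01 (adjusted p 0.125) and no longer called, and Smarcc1 was at -1.31 (adjusted p 0.0428).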

How the results depend on the processing

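In maternal deletion, Smarca4, Smarca2 and Smarcc1 were called with the same direction under each of 10 alternatives, Arid1b under 9 and Pbrm1 under 7. The number of subunits called, 5, became 8 with DESeq2, 7 with total counts or all libraries over 1000 counts, 6 with RLE factors or no filter, 3 to 4 with a replicate left out and 6 without the 3 libraries that stand apart. Against IgG, the 2 calls became 0 with total counts or a minimum of 500000 counts, 4 with DESeq2 or no filter, 5 with a replicate block, and 0 to 2 with a replicate left out. Against uninjected embryos, the 5 calls became 0 without replicate 1 and 5 without replicate 2 or 3, where leaving out replicate 2 lost Smarcb1 and gained Arid1a. IgG against uninjected embryos gave 2 calls with DESeq2 and 1 with no filter. Same-numbered sets deviated together across genes in the deletion (correlation 0.54), against IgG (0.59) and between IgG and uninjected embryos (0.43). Between anti-SMARCA5 and uninjected embryos they hardly did (0.076). In the deletion experiment same-numbered sets also share a sequencing lane by the column headers. The TrimAway columns all name the same lane, so with 2 shared numbers those sets may share a number alone. Against IgG the replicate block gave log2 changes of -1.02 for Smarca4, 1.298 for Smarca2, -1.22 for Smarcc1, 0.63 for Arid1a and 1.10 for Arid1b, and 25.8% of all genes were called. Against uninjected embryos it no longer called Smarcb1 (-0.93, adjusted p 0.0664) and called Arid1a (0.49, adjusted p 0.0292). Between deletion and TrimAway effects it left 1 of 2 calls, that of Smarcc1. Among all genes, the calls against IgG went from 317 to 64 with total counts, 1330 with DESeq2, 3010 with no filter, 2691 with the block, 661 with all libraries over 1000 counts, 150 with 500000 counts, 591 without replicate 2 and 0 without replicate 1. Against uninjected embryos they went from 2999 to 6184 with no filter and 1 without replicate 1. Between IgG and uninjected embryos they went from 0 to 269 with DESeq2 and 881 with no filter, and in the deletion from 4825 to 10416 with no filter and 2801 without replicate 2. For the difference between replicates they went from 65 to 678 with no filter, and for that between deletion and TrimAway from 2315 to 1404 with the block. Scaling by total counts moved the median change over all genes from 0.18 to -0.04 in the deletion, from 0.04 to -0.10 against IgG and from 0.13 to -0.29 against uninjected embryos. With a replicate left out, the Smarca4 share of its pair was 26.9 to 89.9% in wild type, 40.2 to 65.7% in uninjected and 28.4 to 67.2% in IgG embryos. No change called in the main test reversed. Some that reversed were called in alternatives. With a replicate left out, those in the deletion ranged from -1.41 to 0.10 for Smarcb1 and from -0.80 to 0.76 for Smarce1. Against IgG, Smarce1 was -0.036 with RLE factors, -0.15 with total counts, -0.038 with DESeq2, -0.028 with no filter, -0.0011 with 500000 counts, -0.0082 in replicate 3 alone and -0.22 to 0.14 with a replicate left out (-0.0057 without replicate 3). Pbrm1 was 0.071 with 1000 counts and -0.24 to 0.17 with a replicate left out. Against uninjected embryos, total counts gave -0.28 for Smarcc2, -0.042 for Arid1a and -0.14 for Pbrm1, and Smarce1 was 0.019 without replicate 2. Between IgG and uninjected embryos, Smarcc1 was -0.22 with total counts, -0.12 with 1000 counts, -0.036 with 500000 counts and -0.21 to 0.26 with a replicate left out, Smarce1 was -0.17 to 0.043 likewise, and Arid1b was -0.020 with total counts. Total counts also gave -0.012 and 0.023 for Arid1a in the differences between replicates and between deletion and TrimAway. The causes were not tested. The values within 1 TrimAway replicate and the alternatives for the shares were chosen after seeing the data. Depth limits Smarcc2 and Smarcd1 most, with 3 or fewer counts in many libraries.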
